A study of Citrus maxima and Citrus sinensis with 8 samples.

Results

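Leaf RNA of sweet orange (Citrus sinensis) seedlings treated with aluminium for 18 weeks was compared with leaf RNA of control seedlings of the same species. The 4 C. sinensis libraries were taken out of the 8 libraries of the series by their titles, 2 from aluminium leaves and 2 from control leaves. The other 4 libraries, from Citrus grandis (pummelo), entered the statistical fit only to estimate the spread of each gene and were set beside C. sinensis for a few genes. Each library came from 1 pool of leaves of 5 seedlings grown in separate pots, so that a group consists of 2 pools. The sources used here do not give the concentration of aluminium.

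Aluminium is held in minerals in neutral soil and becomes soluble in acid soil, where its ions first damage the root tip and restrict the uptake of water and mineral nutrients. Leaves are reached later, and long exposure is known in citrus to lower photosynthesis and to disturb mineral nutrition. Tolerant plants release organic acids from the root that bind the ion, or sequester it within cells. Of the citrus species in the series, C. sinensis is known as the tolerant one and C. grandis as the sensitive one.

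The unit of the data is FPKM, fragments scaled to gene length and library size. The files list 30297 gene IDs and pair none with a name or a product, so no pathway could be described and the leaf origin could not be checked against marker genes. For the same reason only 4 of the changed IDs are named, and no function is given to them. A read was present for 22223 IDs in at least 1 C. sinensis library. Library totals ranged from 16926806 to 19296323 reads with aluminium and from 19670766 to 19794247 reads in control leaves. At the median gene length 3 reads correspond to between 0.0936 and 0.109 FPKM in these libraries.

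The 2 aluminium pools resembled each other less than the control pools did. Over the 16064 genes that averaged 1 FPKM or more in C. sinensis, the median absolute difference between pools was 0.21 on the log2(FPKM + 1) scale with aluminium and 0.124 in control leaves. Pools lay at least 2-fold apart on that scale in 996 genes with aluminium (6.2%) and in 85 genes in control leaves (0.529%). Of the 996, 673 were higher in aluminium pool 1 and 323 in aluminium pool 2. Over genes with at least 100 reads in a pair, the median chi-square between pools was 5.54 with aluminium and 1.96 in control leaves, against 0.455 for sampling noise alone. Both pairs thus differed by more than the counting of reads.

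Reads that could come from the other species were looked for on a few genes. Of the genes at 10 FPKM or more in every C. grandis library and without a read in C. sinensis control leaves, of which there were 6, no read was found in aluminium pool 1. Aluminium pool 2 had 2 reads on these genes. In the C. grandis libraries these genes together held between 2170 and 2435 reads per library. The smallest admixture that 6 genes could show was not worked out. The cause of the difference between the aluminium pools was not tested.

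The first question was how many leaf transcripts separated aluminium from control leaves in both pools. Both aluminium pools lay at least 1 log2 unit above both control pools in 173 genes, 1.08% of those tested, and at least 1 log2 unit below them in 87 genes (0.542%). A gap of at least 0.5 was found for 862 genes above and 603 below. With any gap counted, 5954 genes lay above (37.1%) and 3871 below (24.1%). The balance turned with the scaling. Once each library was centred on its median, the gap of 1 was reached by 117 genes above and 128 below, and any gap by 3701 above and 5845 below. Centring moved the median log2 change over the tested genes to -0.06, against 0.08 without it. In a pooled leaf, fewer cells of a type and less RNA per cell cannot be told apart.

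**Figure D1:**
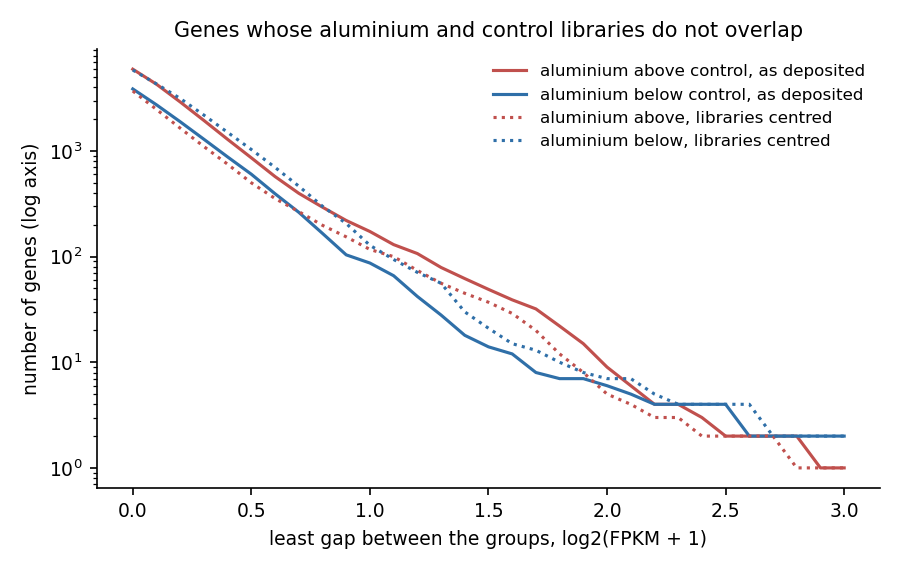
Number of genes (log axis) whose aluminium and control pools of C. sinensis are separated by at least the gap on the x axis, in log2(FPKM + 1). Solid lines are the values as deposited, where 173 genes lie above and 87 below at a gap of 1, and dotted lines follow median centring of the libraries, where the counts are 117 and 128.

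Each gene was then tested with limma on log2(FPKM + 1), with all 8 libraries sharing 1 estimate of the spread per gene. At a Benjamini-Hochberg adjusted p below 0.05, 639 genes rose with aluminium and 450 fell, 6.78% of those tested. The genes that rose made up 3.98% and those that fell 2.8%. After centring the libraries on their medians, limma called 354 that rose and 849 that fell, and these included 354 of the 639 and all 450 of the original calls. After quantile normalization the counts were 473 and 779. The surplus of rises over falls thus turned with the scaling. In all 639 genes that rose and all 450 that fell, the aluminium pools did not overlap the control pools. The calls rest on the same values, so this separation follows largely from the selection. It was also found for 37.1% above and 24.1% below among all genes tested.

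The calls lean on the borrowed spread. With the 4 C. sinensis libraries alone, limma called 0 genes, and 4063 had an unadjusted p below 0.05. With voom, applied to the reads recovered from all 8 libraries, 556 rose and 399 fell. The root mean residual variance was 0.338 log2 units within C. sinensis, against 0.298 over all 8 libraries. Of the pairs of pools in the series, the C. grandis control libraries had the highest median chi-square, at 8.36. The C. grandis aluminium libraries came close to sampling noise, with a median chi-square of 0.657. With that pair counted as 1 library, 38 genes rose and 23 fell. Without C. sinensis control replicate 1 limma called 0 genes, while 2669 had an unadjusted p below 0.05. Without control replicate 2 it called 2 that rose and 0 that fell, with 2769 at an unadjusted p below 0.05. Without aluminium replicate 1 the counts were 645 and 340, and without aluminium replicate 2 they were 1508 and 726. The genes called also changed: without aluminium replicate 1, 327 of the 639 rises and 249 of the 450 falls were called again.

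Most called changes were moderate. Among the genes that rose the median log2 change was 0.83, with 231 at least 2-fold and 36 at least 4-fold higher. Among those that fell the median was -0.81, with 115 at least 2-fold and 11 at least 4-fold lower. The smallest called change was 0.38 for a rise and 0.41 in size for a fall. Of the 173 genes with a gap of 1 above the controls 137 were called, and of the 87 below 72 were called. Over all genes tested the shares called were 3.98% for rises and 2.8% for falls. Gap and call rest on the same values, so their overlap is no separate support.

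Cs2g13910 had the widest gap of the genes that rose. It stood at 224 and 480 FPKM in the aluminium pools, against 4.38 and 9.1 FPKM in the control pools. These values rest on 6658 and 16236 reads with aluminium and on 152 and 314 reads in control leaves. Both aluminium pools were far above both control pools, and the lowest aluminium pool lay 4.48 log2 units above the highest control pool. The mean was 52.2-fold higher, and the log2 change was 5.48 (SE 0.43, 95% interval 4.45 to 6.51, limma adjusted p = 0.00899). By mean FPKM the gene stood at place 181 of all IDs with aluminium and at place 10076 in control leaves. In C. grandis the log2 change was 5.24 (SE 0.43), and the effects of the species differed by 0.24 (SE 0.61, limma adjusted p = 0.857).

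Cs5g15190 had the largest gain of mean FPKM among the genes that rose. It stood at 867 and 971 FPKM in the aluminium pools, against 532 and 454 FPKM in the control pools. The groups did not overlap, with a gap of 0.7 log2 units. The mean was 919 ± 73.8 FPKM with aluminium and 493 ± 54.9 FPKM in control leaves (SD, n = 2 pools each). The log2 change was 0.9 (SE 0.19, 95% interval 0.44 to 1.36, limma adjusted p = 0.0459). This call was lost after median centring, where the log2 change was 0.76 (limma adjusted p = 0.065), and in 12 of 20 alternatives in all, over which the adjusted p ranged from 0.0159 to 0.235. In C. grandis the log2 change was 1.71 (SE 0.19), and the difference between the species was -0.81 (SE 0.27, limma adjusted p = 0.182).

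Cs9g03280 had the widest gap of the genes that fell. It stood at 2.51 and 1.1 FPKM in the aluminium pools, against 67.6 and 34.6 FPKM in the control pools. Only 22 and 11 reads were left with aluminium, against 693 and 353 reads in control leaves, on a gene of 518 bp. The highest aluminium pool lay 3.34 log2 units below the lowest control pool. It fell by 4.19 on the log2 scale (SE 0.42, 95% interval -5.2 to -3.18, limma adjusted p = 0.00937). The change in C. grandis was -0.74 (SE 0.42, limma adjusted p = 0.273), and the difference between the species was -3.45 (SE 0.6), which did not pass the threshold (limma adjusted p = 0.0534).

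Cs3g03670 lost the most FPKM of the genes that fell. It stood at 2086 and 2072 FPKM in the aluminium pools, against 3793 and 4268 FPKM in the control pools. The aluminium pools nearly coincided, and the groups were separated by 0.86 log2 units. It was among the most abundant leaf transcripts in both treatments, at place 16 by mean FPKM with aluminium and place 11 in control leaves. It fell by 0.95 on the log2 scale (SE 0.21, 95% interval -1.46 to -0.44, limma adjusted p = 0.0494). This call was lost after quantile normalization, where the log2 change was -0.7 (limma adjusted p = 0.114), and in 13 of 20 alternatives in all, over which the adjusted p ranged from 0.0148 to 0.248. Of its neighbours in the numbering of the IDs only 1 was expressed enough to be tested, and that gene fell too. Near-identical copies can exchange reads, and no source used here says how such reads were counted. The difference from the effect in C. grandis was -0.48 (SE 0.3, limma adjusted p = 0.415).

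**Figure D2:**
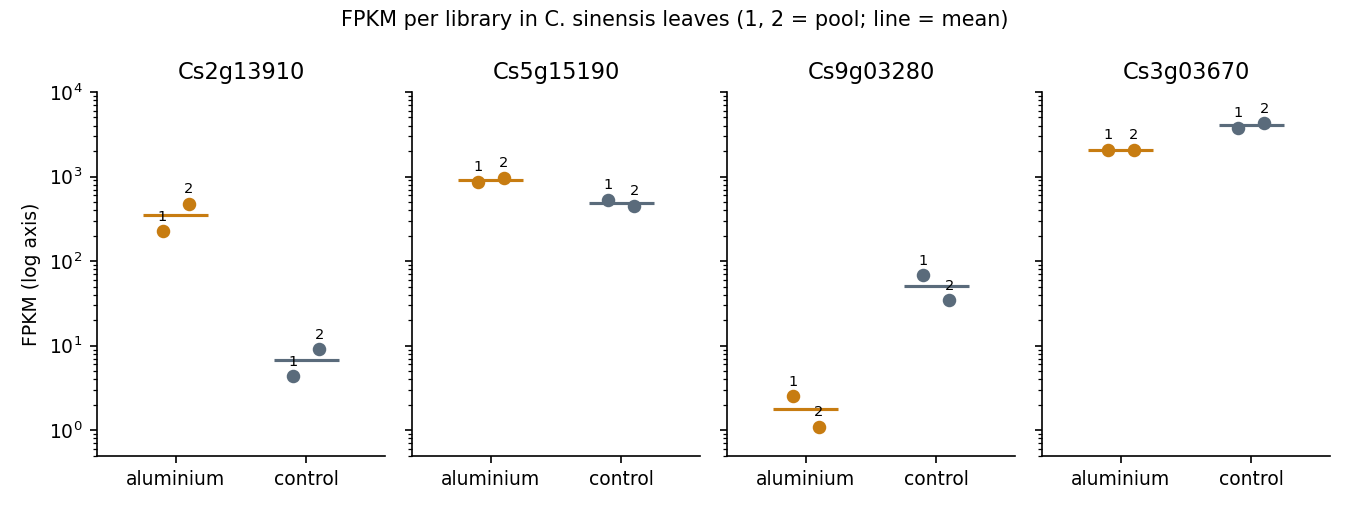
FPKM (log axis) of 4 genes in each C. sinensis pool, with aluminium left of control; points are pools 1 and 2 and the line is their mean. In all 4 genes the pools of the treatments are separated, from a gap of 0.7 log2 units for Cs5g15190 to 4.48 for Cs2g13910.

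On the values as deposited, the calls were spread unevenly over the levels of expression. Among the 4384 genes with a mean of 1 to 5 FPKM, 3.31% rose and 1.12% fell. Between 5 and 20 FPKM 4.8% rose and 1.73% fell, and between 20 and 100 FPKM 3.68% rose and 4.56% fell. Between 100 and 500 FPKM 3.6% rose and 8.36% fell. Of the 113 genes at 500 FPKM or more, 9 fell and 1 rose, which was Cs5g15190. The median log2 change ran from 0.11 in the lowest of these classes to -0.36 in the highest, beside 0.08 over all genes. In the highest class each pairing of an aluminium pool with a control pool gave a negative median, between -0.43 and -0.29. The gradient of falls over the levels depended on the scaling. After median centring 2.3% fell between 1 and 5 FPKM and 14.5% between 100 and 500 FPKM. After quantile normalization these shares were 4.79% and 6.56%, a much weaker gradient.

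Among the 100 most abundant genes both aluminium pools lay below both control pools in 61 and above them in 11. After median centring these counts were 71 and 7. After quantile normalization, which gives every library the same distribution of levels by construction, the median change at 500 FPKM or more was -0.08 and 1.77% of these genes fell while 2.65% rose. Over all genes tested the median after quantile normalization was -0.03, so that this class lay little below it. The surplus of falls among the calls of the class was lost. As deposited, the share of reads on the 10 most read genes was lower with aluminium, at 6.14% and 7.3%. In the control pools it was 8.07% and 8.26%.

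Gene length, as recovered from the FPKM, also moved with the direction of the calls. The median length was 1943 bp for the genes that rose and 1288 bp for those that fell, against 1728 bp for all genes tested. Of genes between 500 and 1000 bp 2.35% rose and 5.55% fell, while of genes of 3000 bp or more 4.1% rose and 0.753% fell. The 694 genes under 500 bp stood outside this order, with 2.16% that rose, 2.59% that fell and a median log2 change of 0.08, close to all genes tested. The share that fell was also higher between 500 and 1000 bp than at 3000 bp or more after centring, at 8.47% against 1.88%, and after quantile normalization, at 8.16% against 2.4%. At a mean of 100 FPKM or more, 13.8% of 240 genes under 1000 bp fell, against 0.84% of 238 genes of 2000 bp or more. Between 1 and 20 FPKM these shares were 2.52% and 0.785%, and between 20 and 100 FPKM 8.96% and 1.85%. The share that fell thus climbed with level in genes under 1000 bp and not steadily in genes of 2000 bp or more. Level and length are therefore not separate patterns. Median log2 changes were small throughout, from 0 between 500 and 1000 bp to 0.14 at 3000 bp or more. The part of RNA integrity in the link with length was not tested, since no source used here gives it.

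**Figure D3:**
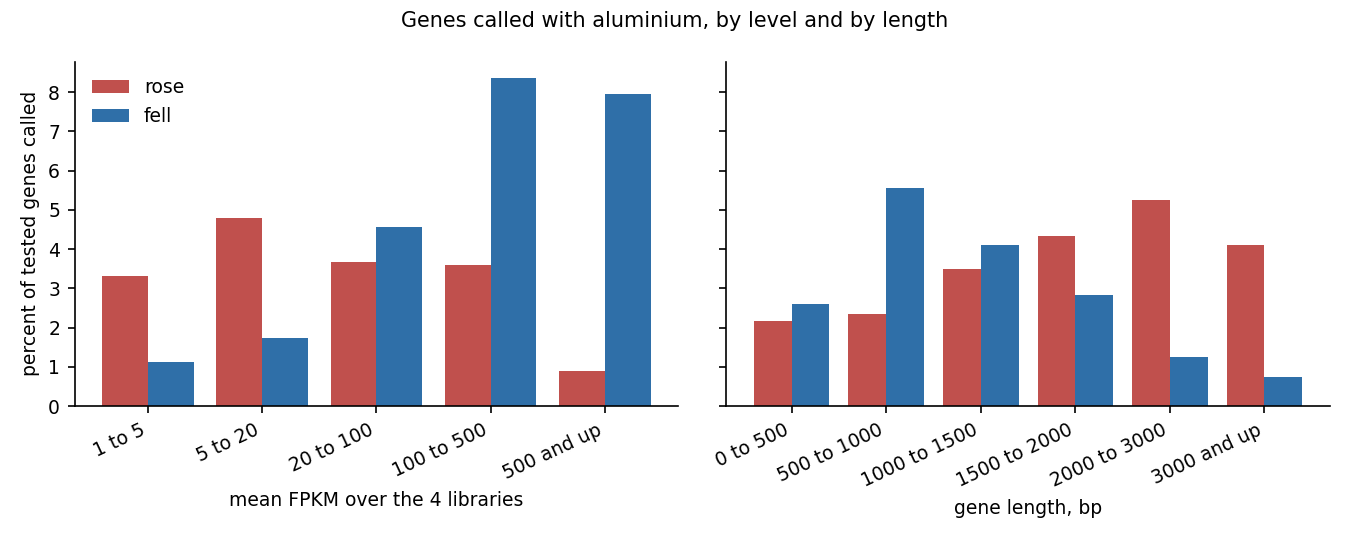
Percent of tested genes that rose or fell with aluminium in C. sinensis, by class of mean FPKM (left) and by class of gene length in bp (right). All shares are from the values as deposited. The share that fell is 1.12% at 1 to 5 FPKM and 8.36% at 100 to 500 FPKM, and it is 5.55% at 500 to 1000 bp and 0.753% at 3000 bp or more.

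The called genes were also weighed by their share of each library. Genes that rose held 4.84% and 4.58% of the reads in the aluminium pools, against 2.33% and 2.35% in the control pools. Genes that fell held 2.83% and 2.86% in the aluminium pools, against 5.14% and 5.22% in the control pools. These shares describe genes chosen by the same values and carry no test.

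The aluminium pools had similar changes in the called genes, which had been chosen by these same values, and differed more outside them. Against the mean of the control pools, the genes that rose had a median log2 change of 0.86 in pool 1 and 0.81 in pool 2, and the genes that fell had -0.81 and -0.79. Over all genes tested, 1006 were at least 2-fold above the control mean in pool 1 and 500 in pool 2, while 335 and 216 were at least 2-fold below it. A mean change of at least 2-fold without a call was found for 480 genes that were higher with aluminium and 85 that were lower. In 422 of the 480 aluminium pool 1 was the higher of the pools. The median difference between aluminium pools was 2.1 log2 units in those 480 genes, against 0.42 in the genes that rose at least 2-fold. This contrast follows largely from the selection, since a wide difference between pools keeps a gene from being called. In 404 of the 480 and 80 of the 85 the aluminium pools still did not overlap the control pools. These genes were chosen by their mean change in the same values, so this separation follows in part from the selection and is no separate support. Over all genes tested such separation was found for 37.1% above and 24.1% below.

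**Figure D4:**
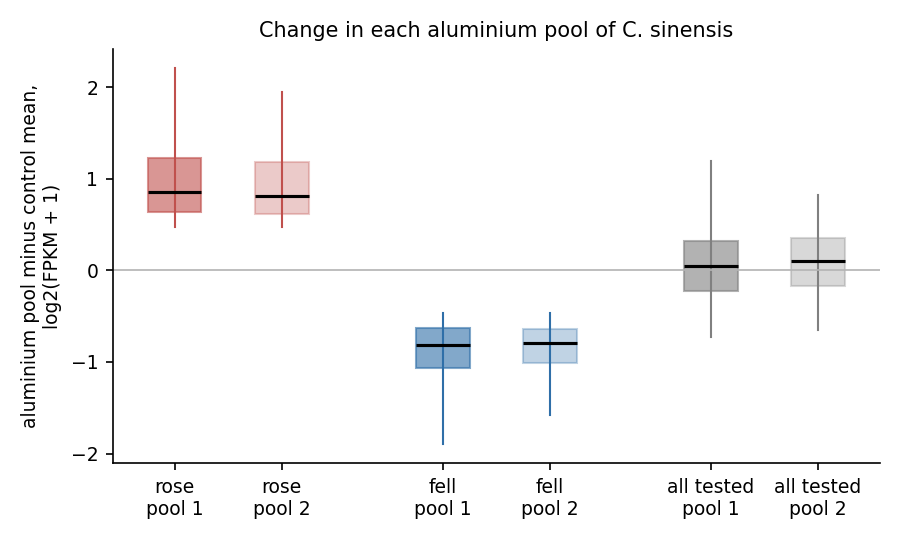
Difference of each aluminium pool from the mean of the control pools on the log2(FPKM + 1) scale, for genes that rose, genes that fell and all genes tested in C. sinensis. Boxes span the middle 50% of genes, vertical lines run from the 5th to the 95th percentile and black lines are medians, which are 0.86 and 0.81 in pools 1 and 2 for genes that rose and -0.81 and -0.79 for genes that fell.

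The 95% intervals bound the change on the log2(FPKM + 1) scale, with the spread shared by all 8 libraries. On that scale the interval lay within 1.5-fold in either direction for 5867 genes (36.5%) and within 2-fold for 12283 genes (76.5%). The median half-width of the interval was 0.4 log2 units. For the 4384 genes between 1 and 5 FPKM these bounds do not limit the fold of FPKM itself, since the added 1 shrinks it.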

How the data were processed

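Leaf mRNA of 8 libraries was analysed. The authors deposited FPKM per gene and library, per the file headers. Per the submitters' processing notes, the tools were TopHat2, Bowtie, HTSeq and edgeR 1.18.0, with no roles stated. The sources used here give no build or annotation. Whole reads, lengths and totals were recovered from ratios of FPKM: of 22312 IDs above 0 in several libraries, 100% gave reads and a length within 0.01 of a whole number. Totals were 16443205 to 19794247 reads. The intervals given for changes come from the spread between libraries in the limma fit, which includes counting error.

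Genes with a mean of at least 1 FPKM over the 4 C. sinensis libraries were fitted on log2(FPKM + 1) with limma 3.58.1 (R 4.3.3), without further scaling: 1 mean per group, 8 libraries, 4 residual degrees of freedom, trend on expression, two-sided, Benjamini-Hochberg over all 16064 genes. This scale understates changes of genes at low FPKM. The fit was tested on simulated data with the same spread between libraries in all groups. That test does not cover the unequal spread of the pools here. Named were, in each direction, the called gene with the widest gap between groups and the one with the largest change of mean FPKM, with at least 5 FPKM in the higher group. The comparison and these rules were chosen with earlier results of these data known. P-values weigh the C. sinensis change against a spread between pools that is shared by all 8 libraries.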

Additional observations from a re-analysis of the deposited data

How the results depend on the processing

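The counts of genes that rose and fell (639 and 450) stayed within 1.5 times of these values in 8 of 20 alternatives each, although a like count need not hold the same genes. The 8 include both smaller pseudocounts, a filter at 5 FPKM, no trend on expression and voom. The counts were 0 and 0 with the 4 C. sinensis libraries alone, which leave 2 residual degrees of freedom in place of 4, and 38 and 23 where the 2 aluminium libraries of C. grandis entered as 1. After median centring they were 354 and 849. Without a filter on low values 423 rose, and after quantile normalization 779 fell. With the replicate number as a block they were 56 and 32. Deviations of same-numbered C. sinensis pools correlated across genes at 0.046. This value cannot show whether same-numbered samples were paired in the experiment, and no source used here says so. With 1 library left out in turn there were 0 to 1508 rises and 0 to 1035 falls. Beyond the values in the report, these were 38 and 23 without either C. grandis aluminium replicate, 1227 and 1033 without C. grandis control replicate 1, and 1225 and 1035 without replicate 2. A pool left alone in its group is assumed to vary like the other groups. The cause of these shifts was not tested.

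No named gene changed direction, which carries little weight. In each of them the aluminium and control pools did not overlap, so leaving out a library could not turn the direction. Several other alternatives alter only the spread or the genes tested and leave the log2 change as it was. Cs2g13910 and Cs9g03280 passed the limma threshold in 17 of 20 alternatives, with adjusted p from 0.0012 to 0.0973 and from 0.00608 to 0.109. Both missed it with the C. sinensis libraries alone and without either C. sinensis control replicate. Low levels limit precision, as in the 11 reads of Cs9g03280 in aluminium pool 2.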

Other observations

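Some IDs were read in aluminium leaves of C. sinensis and not at all in control leaves. With no read in either control pool, 44 IDs had at least 10 reads in an aluminium pool, and the highest had 898 reads. Of these, 36 reached 10 reads in pool 1 alone and 7 in pool 2 alone. In the reverse direction, IDs with no read in either aluminium pool reached at most 14 reads in a control pool. A count of 0 allows a level of up to 3 reads.

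The called genes were spread over all series of ID numbers. The share called was between 6.18% and 8.15% in the 9 numbered series, lowest in Cs1g and Cs9g and highest in Cs2g, against 6.78% of all genes tested. It was 6.04% among the IDs that begin with orange1.1t. Among the remaining 550 tested IDs it was 6.0%, with 2.91% that rose and 3.09% that fell. Over 8616 pairs of consecutive numbered IDs that were both tested, 16 pairs rose together, 14 fell together and 16 moved in opposite directions. Of the tested neighbours of a gene that rose 4.6% rose, against 4.07% of all numbered genes. Of the tested neighbours of a gene that fell 5.39% fell, against 2.87% of all numbered genes. These shares are descriptions without a test.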
